A study of Mus musculus with 12 samples.

Results

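The ISG15 conjugation system was followed through its 6 mouse genes, namely Isg15, Uba7, Ube2l6, Herc6, Trim25 and Usp18, which were read by 8 probes of the array. A probe was taken as a member when the RefSeq accession that identifies it belonged to one of these genes, and all probes so found were kept. The 6 genes were chosen by function, with earlier results of these data known. They stand among 14330 named genes that were expressed on the arrays. Isg15 and Herc6 had a brighter and a dimmer probe each, and the other members had 1 probe each. All 8 probes passed the filter on dim signals, which kept a probe if 3 or more of the 4 arrays of some comparison had it well above background for the same condition.

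The arrays held RNA of neurospheres, aggregates of neural progenitor cells isolated from embryonic mouse telencephalon (day 13). These were grown in suspension, then left to attach to a coated surface and differentiated there for 7 days. WT neurospheres came from wild-type C57BL/6 embryos and received no kinin ligand. APP_WT neurospheres came from embryos of a transgenic mouse model of Alzheimer's disease, which carries an APP transgene with the Swedish mutations (APPswe) and a further transgene, both directed to neurons of the central nervous system, and were likewise untreated. BK_APP and HOE_APP neurospheres carried the same transgenes and received 1 µM bradykinin (BK), the peptide agonist of the B2 kinin receptor, or 1 µM HOE-140, a modified bradykinin peptide that blocks this receptor, on days 0, 3 and 6. The RNA (100 ng) of a pair of conditions was labelled with Cy3 and Cy5 and hybridized together, with swapped dyes and 4 arrays for APP_WT against WT, 4 for BK_APP and 4 for HOE_APP, each against APP_WT. A log2 ratio on 1 array is therefore the difference between the named conditions in log2 units, and a level is the normalized log2 intensity of 1 channel, which can be compared between samples for a given probe but not between probes. The HOE_APP arrays carry the same treatment label on either channel. Their direction was read from channel 1 and the titles, so every sign given for HOE_APP is likely only. The labels number 4 replicates per comparison, APP_WT served as the control of both treatments, and the study took its WT and APP_WT samples over from earlier work of the same group. The treated arrays were on another slide than the arrays of APP_WT versus WT.

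ISG15 is a small protein related to ubiquitin that type I interferon induces strongly. It is attached to other proteins by an enzyme cascade of its own, in which UBA7 activates it, UBE2L6 (UBCH8) carries it, and ligases, chiefly HERC6 in the mouse, pass it to the substrate. USP18 removes it again and also binds the interferon receptor, where it dampens signaling. In the brain, these genes belong to the interferon response that microglia, astrocytes and neurons can all mount.

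The promoter of Isg15 shows the element through which interferon is known to reach this system, and that of Uba7 is given beside it for comparison. Reference promoters from RefSeq (build GRCm38.p6) were found for 5 of the 6 genes, all but Usp18. Below are the 250 bases before the annotated start, 5′ to 3′ on the strand of the gene, for Isg15 (chr4:156200819-156201068, minus strand) and Uba7 (chr9:107975317-107975566, plus strand).
Isg15: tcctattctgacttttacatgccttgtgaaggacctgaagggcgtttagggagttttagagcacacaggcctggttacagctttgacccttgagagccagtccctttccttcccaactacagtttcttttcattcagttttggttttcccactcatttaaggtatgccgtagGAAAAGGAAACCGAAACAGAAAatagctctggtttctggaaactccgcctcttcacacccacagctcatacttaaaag
Uba7: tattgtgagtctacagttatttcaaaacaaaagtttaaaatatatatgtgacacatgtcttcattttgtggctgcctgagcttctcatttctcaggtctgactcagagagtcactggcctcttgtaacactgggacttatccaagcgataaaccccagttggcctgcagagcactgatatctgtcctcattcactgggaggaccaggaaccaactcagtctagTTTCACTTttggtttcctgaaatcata
Capitals in the Isg15 promoter mark 3 overlapping matches to the interferon-stimulated response element, searched as GAAANNGAAA on both strands, which together span bases 78 to 57 before the start. Capitals in the Uba7 promoter mark 1 match to the shorter core of interferon regulatory factors, searched as AANNGAAA on both strands, which lies 27 to 20 bases before the start on the other strand. The longer element was present in 2.98% of 32851 promoter windows of this length and the core, which every longer element contains, in 21.3%. Neither was present in the windows of Ube2l6, Herc6 and Trim25. These letters describe the reference genome, and the arrays did not measure promoters.

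Every gene of the system, 6 of 6, was higher in APP_WT than in WT. By the median signals Isg15 showed the largest difference among them, 4.88-fold, and Ube2l6 the smallest, 1.41-fold, but Uba7 and Usp18, whose WT signal was near background, exceeded Isg15 with the log ratios of the scanner software given further on. All 8 probes passed the threshold (limma, Benjamini-Hochberg adjusted p below 0.05 over 29361 expressed probes), against 11.6% of expressed probes called higher in this comparison. Neither probe of Herc6 nor the dimmer probe of Isg15 was well above background on any WT array. Of these, the dimmer Herc6 probe passed the filter only in the treated comparisons, and the others passed here through APP_WT alone. Uba7 and Usp18, well above background on 2 of 4 WT arrays, also passed here through APP_WT alone. The median log2 fold change over the 6 genes was 1.32, against 0.0039 over all expressed probes, where the median size was 0.095. The arrays read RNA of whole cultures, so more cells of a type and more RNA per cell cannot be told apart.

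Isg15, the modifier itself, was read by its brighter probe at log2 levels of 7.86, 8.11, 7.90 and 8.40 in WT on replicates 1 to 4. In APP_WT the levels were 9.88, 10.44, 10.11 and 10.98. The lowest APP_WT array thus lay above the highest WT array. The log2 ratios of 2.02, 2.33, 2.21 and 2.58 gave a log2 fold change of 2.29 ± 0.11 (SE, n = 4 arrays, limma adjusted p = 4.38e-07), which ranked 14th from the highest of all expressed probes. The dimmer probe was not well above background on any WT array, and its mean level of 7.23 in APP_WT was at least 2.09-fold above the background limit (limma adjusted p = 8.63e-05).

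Uba7, the activating enzyme, had log2 ratios of 1.60, 1.24, 1.27 and 1.69 and a log2 fold change of 1.45 ± 0.11 (SE, n = 4, limma adjusted p = 9.20e-06). Its level was 6.14 to 6.92 in WT, where 2 of 4 arrays were well above background, and 7.38 to 8.36 in APP_WT, where all 4 were. The groups did not overlap. Ube2l6, the conjugating enzyme, was well above background on all arrays and differed less. Its log2 ratios were 0.51, 0.35, 0.46 and 0.65, for a log2 fold change of 0.49 ± 0.06 (SE, n = 4, limma adjusted p = 0.000236). Its levels of 8.84 to 9.01 in WT and 9.30 to 9.65 in APP_WT did not overlap either.

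Herc6, the main ligase for ISG15 in the mouse, was the only member that was not well above background on any WT array by any of its probes. On the brighter probe the log2 ratios were 0.42, 0.68, 0.57 and 0.48 (log2 fold change 0.54 ± 0.06 SE, n = 4, limma adjusted p = 0.000189), which is a difference of at least 1.45-fold. This bound equals the estimate and leaves out the spread between arrays (95% interval 0.40 to 0.68 on the log2 scale). The APP_WT levels of 6.65 to 7.18 overlapped the WT levels of 6.23 to 6.71 across replicates, although APP_WT was above WT within each array. The dimmer probe was well above background in APP_WT on 2 of 4 arrays and gave at least 1.33-fold (limma adjusted p = 0.0141). Trim25, a ubiquitin ligase of the RIG-I pathway that can also act as a ligase for ISG15, was well above background on all arrays. Its log2 ratios of 1.02, 1.27, 1.17 and 1.38 gave a log2 fold change of 1.21 ± 0.08 (SE, n = 4, limma adjusted p = 2.40e-06). WT levels ran from 8.19 to 8.40 and APP_WT levels from 9.34 to 9.74, without overlap.

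Usp18, the protease that removes ISG15, varied most between replicates. Its log2 ratios were 1.16, 1.81, 1.01 and 1.79, and the log2 fold change was 1.44 ± 0.14 (SE, n = 4, limma adjusted p = 4.76e-05). WT levels of 6.39 to 6.86, well above background on 2 of 4 arrays, lay below the APP_WT levels of 7.55 to 8.28. Over the system, 8 of 8 probes had a ratio above 0 on every array (15.1% of all expressed probes), and APP_WT and WT levels did not overlap for 7 of 8 (6.69% of all). The dimmer probe of Herc6, which is in both counts, had not passed the filter in this comparison. The dimmer probe of Isg15, Uba7 and Usp18, also in both counts, had passed it through APP_WT alone. So had the brighter probe of Herc6, which is in the former count only. The 8 probes read the same RNAs and are not independent of each other. Neighbours in the order of fold changes, Uba7 at 1.45 and Usp18 at 1.44, or Herc6 at 0.54 and Ube2l6 at 0.49, differed by less than their SE.

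**Figure D1:**
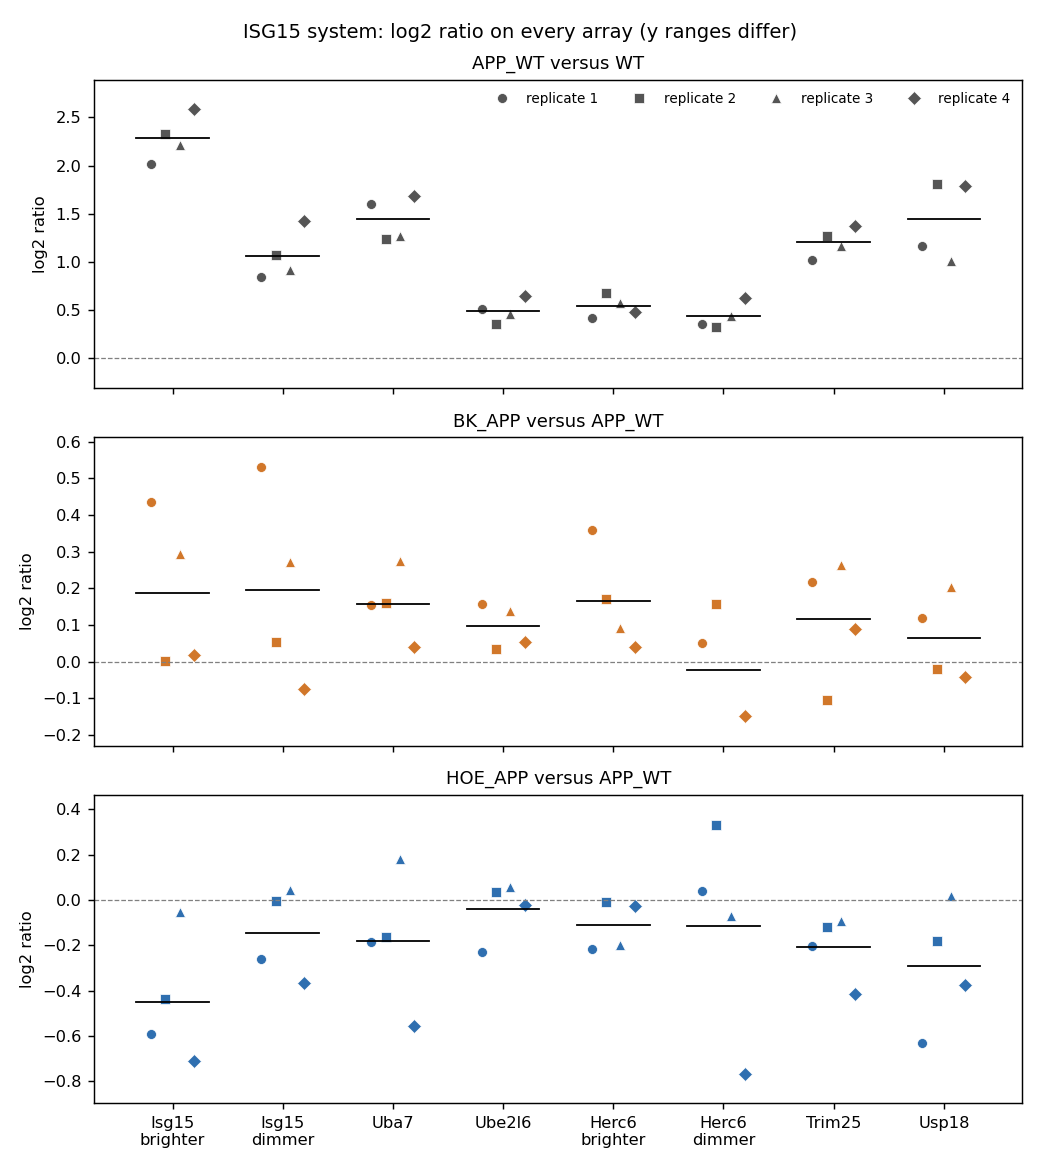
Log2 ratio (y axis, a separate range in each panel) of the 8 member probes (x axis) on each of the 4 arrays of the 3 comparisons; symbols stand for replicates 1 to 4 and the bar for the limma log2 fold change. In APP_WT versus WT every point lies above 0, whereas the ratios of BK_APP and HOE_APP lie between −0.77 and 0.53.

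Members with low signal depended on how the background was handled. With the log ratios of the scanner software in place of the median signals with an offset of 50, the log2 fold change was 1.78 for Herc6, 2.97 for Uba7 and 2.64 for Usp18, and it was 2.63 for Isg15, 1.29 for Trim25 and 0.46 for Ube2l6, with all 6 still below the adjusted threshold. These 3 genes are the ones whose WT signal was at or near background.

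The families from which the members come were mostly near 0 in the same comparison. Of 45 other expressed Usp genes, ubiquitin proteases in the main, 1 was higher and 2 were lower in APP_WT, with a median of −0.05 on the log2 scale. Of 32 other Ube2 genes, the conjugating enzymes of ubiquitin and its relatives, limma called 0 higher (0 also at an unadjusted p below 0.05) and 5 lower, with a median of −0.08. Ube2l3, the closest relative of Ube2l6 and a carrier of ubiquitin, had 4 probes between 0.07 and 0.10, none of which passed the threshold. Of the ubiquitin activating enzymes, Uba1 gave 0.04 and −0.19 on its probes without passing, and Uba6 gave −0.12 and, on the brighter probe, −0.27 (limma adjusted p = 0.0167).

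Among the other Herc genes, Herc1, Herc2 and Herc4 did not pass on any probe, and Herc3 was 0.32 higher on its brighter probe (limma adjusted p = 0.00312) and 0.09 on the dimmer one. The other Trim genes were divided. Of 36 expressed, 8 were higher and 5 lower, with a median of −0.03. The 8 were Trim34a (1.19), Trim12a (1.02), Trim30a (0.73), Trim30d (0.68), Trim21 (0.63), Trim47 (0.62), Trim56 (0.40) and Trim12c (0.35), several of which, such as Trim21 and Trim30a, are known to be induced by interferon. Trim30a and Trim30d were not well above background on any WT array, and their differences were at least 1.59-fold and 1.51-fold. The 8 were named after their values were seen, and the Trim12 and Trim30 genes have near-identical copies whose signals a probe may mix. Among all 14330 named genes, 17.0% were called higher and 1150 genes were called lower.

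**Figure D2:**
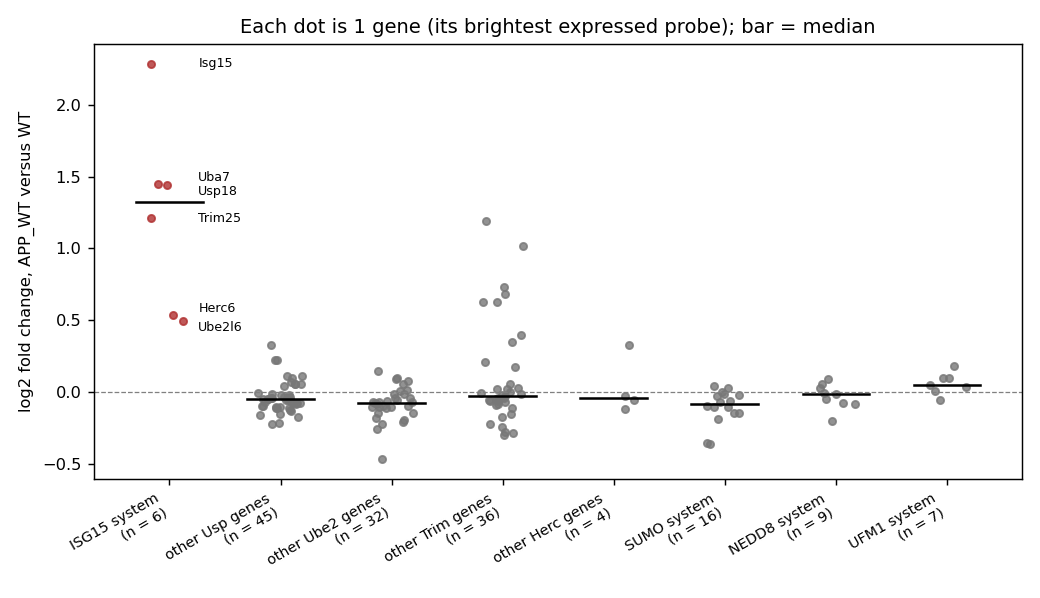
Log2 fold change in APP_WT versus WT (y axis) of every expressed gene of the ISG15 system, of the families from which its members come and of other systems that attach ubiquitin-like proteins (x axis); each dot is 1 gene and the bar is the median. The 6 members lie between 0.49 and 2.29, and the medians of the other lists between −0.08 and 0.05.

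Other ubiquitin-like modifiers, each with an enzyme cascade of its own, also had medians near 0, although the SUMO genes leaned lower. In the SUMO system 0 of 16 expressed genes were higher by limma (0 at an unadjusted p below 0.05) and 5 were lower. Of all 14330 named genes, 1150 were called lower. The SUMO genes had a median of −0.08, with 2 of 16 above 0 and Senp7, a SUMO protease, at −0.36 (limma adjusted p = 0.0173). In the NEDD8 system (9 genes, median −0.01) and the UFM1 system (7 genes, median 0.05) limma called none in either direction, against 1 lower and 1 higher, respectively, at an unadjusted p below 0.05. Among 12 genes of the ATG12 and LC3 systems of autophagy 1 was higher, Gabarapl1 at 0.18, and among 6 ubiquitin and activating enzyme genes 1 was lower, the Uba6 named above.

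Genes that act around ISG15 were read as well. Among 7 expressed genes for another ligase, further proteases and the cell surface receptor of free ISG15, 2 were higher, Usp2 by 0.33 (limma adjusted p = 0.000396) and the integrin chain Itgb2 by 0.32 (limma adjusted p = 0.0259). Arih1, the human counterpart of which also transfers ISG15, gave −0.20 and −0.16 on its probes and did not pass. Among 9 expressed genes for proteins reported to be modified by ISG15, 4 were higher and 1 lower. Ifit1, an RNA-binding antiviral protein that was not well above background on any WT array, was at least 3.76-fold higher (limma adjusted p = 1.70e-07), and Ifih1 (MDA5), a sensor of double-stranded RNA, rose by 1.00 (limma adjusted p = 0.000227). Eif2ak2 (PKR), a kinase activated by such RNA, rose by 0.68 (limma adjusted p = 0.000156), whereas Ube2n fell by 0.15 on the log2 scale (limma adjusted p = 0.0467).

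Upstream of the system, 7 of 13 expressed interferon signaling genes were higher and 1, Jak2, was lower, with a median of 0.34. Among the subunits of the factor that binds the interferon-stimulated response element, Irf9 rose by 0.60 (limma adjusted p = 1.60e-05) and Stat2 by 0.46 (limma adjusted p = 0.000280). Irf7, which amplifies the type I interferon response, was well above background on 2 of 4 APP_WT arrays and on no WT array. It was at least 1.24-fold higher in APP_WT (limma adjusted p = 0.0200), with levels that overlapped across replicates. Irf1 had the largest difference of this list, 1.25 (limma adjusted p = 9.70e-06). Of 20 interferon ligand genes 16 had a probe and 5 were expressed, and only Ifng was called, at 0.36 (limma adjusted p = 0.0104). Its signal was near background, well above it on only 2 of 4 APP_WT and 2 of 4 WT arrays. The mean levels of Ifng, 6.73 in APP_WT and 6.37 in WT, came from levels that overlapped across replicates. Ifnb1 was not well above background in any channel of any array.

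Markers of other cells moved beside the members. Of 16 expressed microglia markers 13 were higher and 1 was lower in APP_WT, with a median of 1.27. Their summed linear level, in arbitrary units, was 27792 to 37128 in APP_WT and 23201 to 30588 in WT, and it was higher in APP_WT on 4 of 4 arrays. P2ry12, Spi1 and Gpr34 had probes but did not pass the filter. Among defining genes, Aif1 rose by 2.21, Tyrobp by 2.22, C1qa by 2.07 and Csf1r by 0.95, whereas Sall1 fell by 0.30 (limma adjusted p = 0.00307) and Itgam (0.11) and Siglech (0.05) did not pass the threshold. Of 10 astrocyte markers 7 were higher (median 0.28, Gfap 0.69), of 12 neuron markers 3 were higher and 3 lower (median 0.02), and of 7 neural progenitor markers 3 were higher and 2 lower (median 0.13). Oligodendrocyte (median 0.06) and endothelial markers (median 0.21, 4 expressed) had 1 higher each, the former with 1 lower, pericyte and fibroblast markers had 3 lower of 6 (median −0.20), and none of 6 peripheral myeloid markers with a probe was expressed. All neuron, astrocyte and progenitor markers with a probe were expressed. The part of these cells in the difference of the ISG15 genes was not tested.

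Of the transgenes themselves the arrays gave no direct reading. The probe of mouse App gave 0.12 (limma adjusted p = 0.0925), and Prnp, whose promoter drives these transgenes in the line, was 0.75 higher with log2 ratios from 0.25 to 1.57 (limma adjusted p = 0.00581). Neither kinin receptor gene, Bdkrb1 or Bdkrb2, was well above background in any channel of any array.

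**Figure D3:**
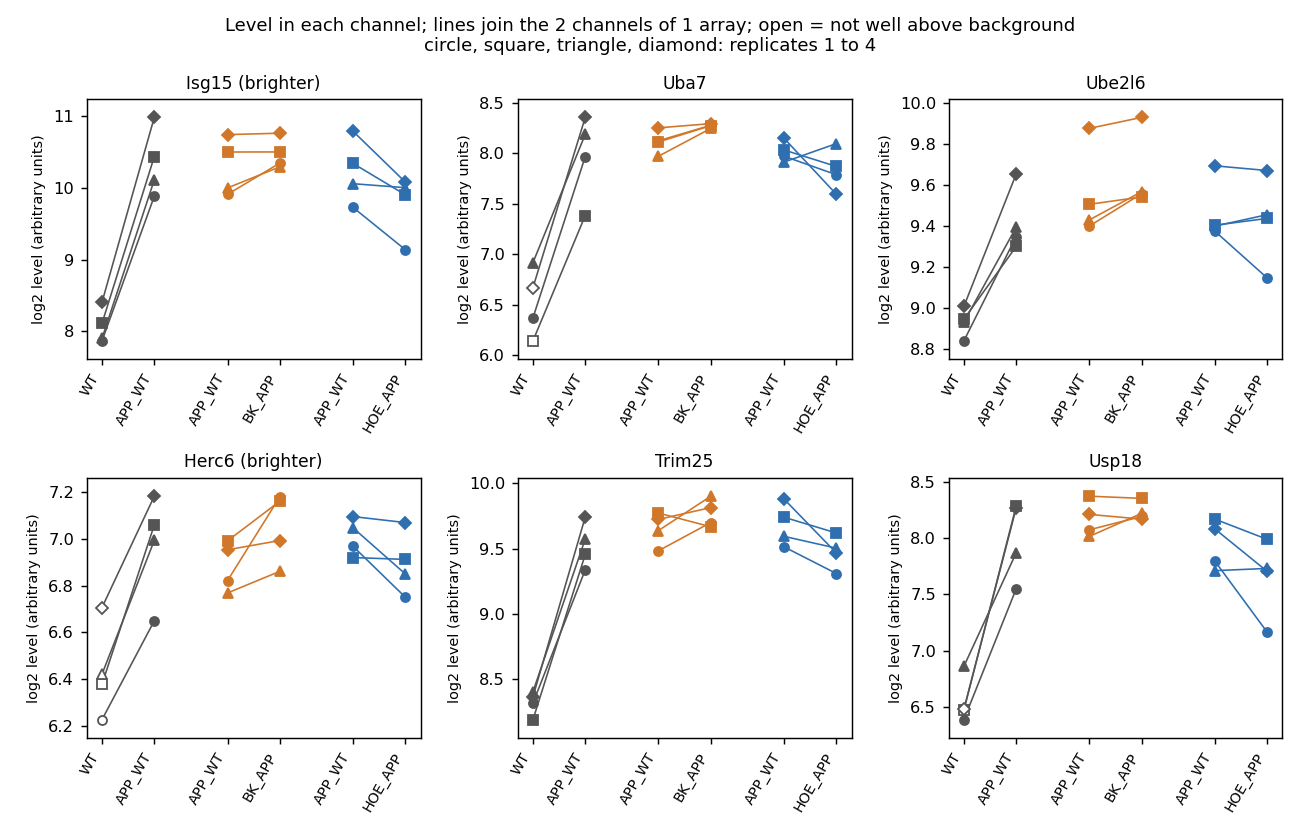
Normalized log2 level (y axis, arbitrary units, a separate range in each panel) of the 6 genes, by the brighter probe where there were 2, in both channels of each of the 12 arrays; a line joins the channels of an array, symbols stand for replicates 1 to 4, and open symbols were not well above background. APP_WT lies above WT on all 4 arrays for every gene, whereas treated and untreated levels overlap.

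With BK, no member passed the adjusted threshold, nor did any expressed probe (limma, 0 of 29361, 0%). Herc6 by its brighter probe was below an unadjusted p of 0.05, 1 of 8 probes against 2.10% of all expressed probes called higher by that rule. The fitted log2 fold changes over the 6 genes ran from 0.07 to 0.19 with a median of 0.14, against −0.0046 over all expressed probes, where the median size was 0.048. A ratio above 0 on every array was found for 4 of 8 probes, against 5.06% of all expressed probes.

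Isg15 had log2 ratios of 0.44, 0.0009, 0.29 and 0.02 on its brighter probe, with a log2 fold change of 0.19 (95% interval −0.06 to 0.44, limma adjusted p = 0.967). Replicates 1 and 3 were thus apart from 2 and 4, and the value was 0.079 without replicate 1 and 0.30 without replicate 2. The same split was seen on the dimmer probe, at 0.53, 0.05, 0.27 and −0.07. It was also present in the untreated channel of the brighter probe, where APP_WT was at 9.91 and 10.00 on replicates 1 and 3 and at 10.50 and 10.74 on replicates 2 and 4, while the BK_APP levels were 10.35, 10.50, 10.29 and 10.76. The APP_WT level of a given replicate number differed by at most 0.24 between the 3 sets of arrays, and its mean by 1.00 between numbers. This did not extend to every member, since the gap within a number exceeded the range over numbers for Uba7 (0.73 and 0.41) and Usp18 (0.52 and 0.47). The same held for the brighter probe of Herc6 (0.32 and 0.26) and its dimmer probe (0.57 and 0.35).

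Herc6 had log2 ratios of 0.36, 0.17, 0.09 and 0.04 on the brighter probe (0.17, 95% interval 0.03 to 0.30, limma adjusted p = 0.967). On the dimmer probe, which lacked replicate 3 because the spot was uneven, they were 0.05, 0.16 and −0.15, so that the probes of this gene differed in sign. Uba7 had ratios of 0.15, 0.16, 0.28 and 0.04 and Ube2l6 of 0.16, 0.04, 0.14 and 0.05, all above 0 and small. Trim25 (0.22, −0.11, 0.26 and 0.09) and Usp18 (0.12, −0.02, 0.20 and −0.04) were on both sides of 0. The value of Trim25 went from 0.12 to 0.036 without replicate 1, and that of Usp18 from 0.07 to 0.0035 without replicate 3.

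With HOE-140 as well, no member and no expressed probe passed the adjusted threshold (limma, 0%). All 8 fitted log2 fold changes were below 0, from −0.45 to −0.04 over the 6 genes with a median of −0.19, against 0.0002 over all expressed probes. Isg15 and Trim25 were below an unadjusted p of 0.05, 2 of 8 probes against 2.72% of all expressed probes called lower by that rule. A ratio below 0 on every array was found for 3 of 8 probes, against 4.98% of all. With the other reading of the conflicting labels each of these signs turns. Isg15 is among the genes that the study itself picked from these arrays for their response to the treatments, so its values are not independent evidence of a direction.

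Isg15 had log2 ratios of −0.59, −0.44, −0.06 and −0.71 on its brighter probe (log2 fold change −0.45, 95% interval −0.70 to −0.20, limma adjusted p = 0.924). Replicate 3 was near 0 and the other 3 arrays were lower. The levels were 9.14, 9.90, 10.00 and 10.08 in HOE_APP and 9.73, 10.34, 10.06 and 10.79 in APP_WT, so that the groups overlapped across replicates. The dimmer probe differed less, at −0.26, −0.0040, 0.04 and −0.37 (−0.15, limma adjusted p = 0.936). The brighter probe ranked 29351st of 29361 from the highest, and with the opposite reading of HOE_APP it ranked 11th.

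Trim25 had log2 ratios of −0.20, −0.12, −0.09 and −0.41 (−0.21, 95% interval −0.38 to −0.04, limma adjusted p = 0.924). Usp18 had ratios of −0.63, −0.18, 0.02 and −0.38 (−0.29, 95% interval −0.60 to 0.01, limma adjusted p = 0.924). Uba7 had ratios of −0.18, −0.16, 0.18 and −0.55 (−0.18, limma adjusted p = 0.924). In these genes too replicate 3 was the highest, and in Trim25 and Uba7 replicate 4 was the lowest. Without replicate 4 the value of Uba7 was 0.0048. Herc6 departed from this pattern, with −0.22, −0.01, −0.20 and −0.03 on the brighter probe. Its dimmer probe gave 0.04, 0.33, −0.07 and −0.77, so that replicate 4 alone was far below 0. Ube2l6 was at −0.23, 0.03, 0.06 and −0.02, with replicate 1 below the other 3.

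By the tests that the study's methods name, significance analysis of microarrays and rank products with both p at 0.05 or lower and no adjustment, all 8 probes were called in APP_WT versus WT and none in BK_APP. In HOE_APP Isg15 by the brighter probe, Trim25 and Usp18 were called. These rules called 9.34%, 1.30% and 1.66% of all probes that had a value on the 4 arrays. The dimmer probe of Herc6 lacked an array in BK_APP and was not tested there. The study, with the same named tests, lists ISG15 among the genes overexpressed with BK. Here the brighter Isg15 probe had a p of 0.075 by significance analysis of microarrays and 0.034 by rank products in BK_APP. The ratios were normalized as described below, and fewer probes were called in each comparison than the transcripts that the study counts.

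**Figure D4:**
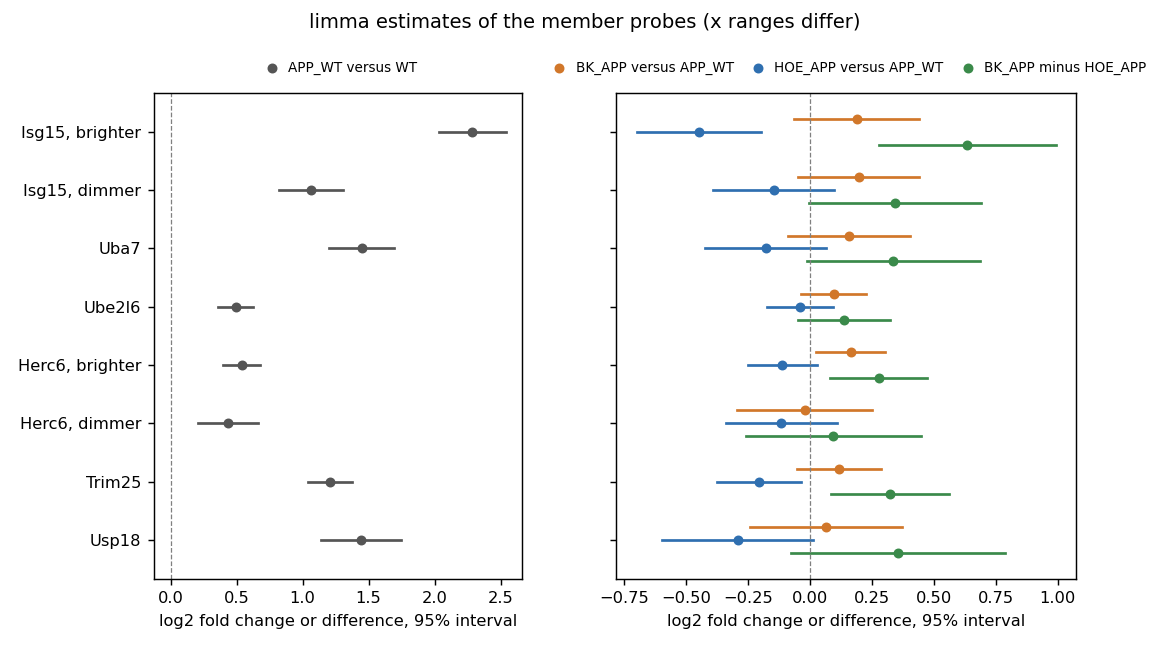
limma log2 fold changes of the 8 member probes with 95% intervals (x axis, a separate range in each panel), for APP_WT versus WT on the left and for the treatments and their difference on the right. On the left all intervals lie above 0, and on the right the values of BK_APP minus HOE_APP run from 0.09 to 0.64.

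The ligands, given at the same dose and on the same days, form 1 pair that can be compared. The difference BK_APP minus HOE_APP was above 0 for all 8 probes, but none passed the adjusted threshold, as was the case for all expressed probes (limma, 0%). An unadjusted p below 0.05 was found for 3 of 8 probes, against 1.20% of all expressed probes higher by that rule. These were Isg15 by the brighter probe, at 0.64 (95% interval 0.28 to 0.99), Trim25 at 0.32 (0.08 to 0.56) and Herc6 by the brighter probe at 0.28 (0.08 to 0.47), each with a limma adjusted p of 1. Usp18 gave 0.36 (interval −0.08 to 0.79), Uba7 0.34 (−0.01 to 0.69) and Ube2l6 0.14 (−0.05 to 0.32). Both ligands were measured against the same APP_WT samples, and both sets of ratios hold that control. The shared replicate numbers pair these arrays, and with the replicate block 6 of 8 probes had an unadjusted p below 0.05, all of them higher, against 4.35% of all expressed probes higher and 3.52% lower by that rule. The dimmer probe of Isg15, Uba7 and Usp18 were added to the former 3, while the smallest limma adjusted p was 0.286, for Isg15 at 0.64. With the other reading of the HOE_APP labels the values of Isg15, Trim25, Uba7 and Usp18 were below 0, from −0.26 to −0.02, and 0 of 8 probes had an unadjusted p below 0.05 in limma with or without the block. Without the block, 3.61% of all expressed probes were then higher and 4.32% lower by that rule, and with it 0.783% and 1.18%.

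In the treated arrays the microglia markers were also on different sides of 0, none of them past the adjusted limma threshold. Of the 16, 12 were above 0 with BK (median 0.12), 5 of them at an unadjusted p below 0.05, and 0 were above 0 with HOE-140 (median −0.08, 1 at an unadjusted p below 0.05), where the direction is likely only. Their summed level was higher than in APP_WT on 2 of 4 BK_APP arrays and on 0 of 4 HOE_APP arrays, and the part of these cells in the values of the ISG15 genes was not tested. Of the relatives of the members limma called none under either ligand, and the medians of the families were close to 0. The medians with BK and with HOE-140 were −0.01 and 0.0012 for the other Usp genes, 0.0022 and 0.03 for the other Ube2 genes, 0.0054 and −0.03 for the other Trim genes and −0.05 and −0.04 for the other Herc genes. Single Trim genes departed from their median. Trim34a gave 0.20 with BK and −0.22 with HOE-140, as large as the values of most members, and Trim34a, Trim47 and Trim61 had a BK_APP minus HOE_APP above 0 at an unadjusted p below 0.05, 3 of 36. Of the 8 Trim genes higher in APP_WT, 6 were above 0 with BK and below 0 with HOE-140, as were 12 of all 36. The medians of the SUMO system were −0.0042 and 0.04. The interferon signaling genes had medians of 0.0033 and −0.03, with Irf1 at 0.23 and −0.09, Irf9 at 0.0033 and −0.09, Stat2 at 0.10 and −0.06, and Irf7 at 0.05 and −0.10. In the list of reported ISG15 substrates the medians were 0.03 and 0.0088, and Ifit1 gave 0.25 with BK and −0.48 with HOE-140, the highest and the lowest values of that list. With the opposite reading of HOE_APP it would be the highest under both.

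The genes whose log2 ratios were most like those of Isg15 (brighter probe, Pearson's r over the 12 arrays, 14150 genes) were Igtp (0.997), Rtp4 (0.995), Bcl2a1d (0.995), Tap2 (0.995) and C3 (0.994). Trim25 followed in 6th place at 0.994. Uba7 was 67th (0.977), Usp18 96th (0.972), Ube2l6 210th (0.948) and Herc6 468th (0.902). Over these 12 arrays, the 4 of APP_WT versus WT lie apart from the treated arrays for all 6 members, so the values carry little beyond that difference. Over the 8 treated arrays alone (14191 genes) they were Igtp (0.994), Mmgt2 (0.969), Rtp4 (0.965), Tgtp2 (0.963) and Bcl2a1d (0.957), with Trim25 15th (0.922), Usp18 40th (0.896), Uba7 48th (0.885), Ube2l6 151st (0.797) and Herc6 424th (0.686). These ranks depend on the likely direction of HOE_APP. With its sign turned the first 5 were Igtp (0.987), Rabepk (0.947), Doxl2 (0.921), Mmgt2 (0.921) and Rtp4 (0.919), with Usp18 28th (0.850), Trim25 51st (0.811), Uba7 179th (0.720), Ube2l6 1808th (0.376) and Herc6 7443rd (−0.031). Over the 12 arrays they were then Igtp (0.997), Rtp4 (0.993), C3 (0.993), Trim25 (0.990) and Gbp3 (0.990). The arrays share APP_WT RNA, and the values are a description.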

How the data were processed

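Total RNA of neurospheres was measured on 12 2-color Agilent SurePrint G3 Mouse GE 8x60K arrays with dye swaps. The authors deposited the scanner output, in which the median intensity and local background of each spot are given per dye without normalization, together with a log10 ratio of processed signals, and a table of log2 ratios that matched the scanner ratios in scale and sign. Per the file headers the scans were read with Feature Extraction 11.0.1.1. The latter table and the log10 ratios were used as alternatives only.

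Median intensities were corrected by normexp (offset 50) and normalized by loess (span 0.3) in limma 3.58.1 (R 4.3.3). Uneven spots were set to missing. All ratios have APP_WT as the denominator in treated arrays and WT in the others, and levels of single channels were scaled by Aquantile. Of 55681 probes 29361 passed the filter on dim signals, and 45.2% to 60.1% of spots per channel were well above background. One limma model held a mean and a dye term per comparison (6 residual and 4.56 prior degrees of freedom). Tests were two-sided and adjusted over all expressed probes by the method of Benjamini and Hochberg at 0.05. The fit was tested on simulated data. A gene was represented by its brightest expressed probe. Symbols came from RefSeq accessions through a gene table of assembly GRCm38.p6, from which nothing but names was taken since the arrays were designed on another one. Bounds ("at least") set the mean of the bright condition against the higher of the probe's own signal and the lowest signal well above background. They concern the background only and leave out the spread between arrays. The number of arrays limits the precision. The labels do not say whether replicates came from separate cultures, whereas the study's methods call them independent, and p-values measure the spread between these arrays.

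The correlation of deviations between BK_APP and HOE_APP arrays of the same replicate number was 0.51 to 0.67, against at most 0.31 for other numbers, in the direction used here, so the numbers pair these samples. Arrays of opposite dye within a treatment correlated at −0.32 to −0.11. For the direction of HOE_APP, replicate differences in the channel taken as APP_WT correlated with those of APP_WT on the other arrays at 0.36 to 0.61, and those of the channel taken as HOE_APP at 0.23 to 0.38 (29361 probes). The channel taken as APP_WT also had the dye of APP_WT on the other arrays, and the channel taken as HOE_APP had the other dye. Dye and condition therefore cannot be told apart in this comparison. It was seen afterwards, was not used to assign channels, and leaves the direction likely only.

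The members, the gene lists (interferon signaling and ligands, reported ISG15 substrates, other ISG15 ligase, proteases and receptor, SUMO, NEDD8, UFM1, ATG12 and LC3 systems, ubiquitin genes, cell type markers, kinin receptors and transgene related genes) and the alternatives were chosen with earlier results of these data known. Named are all member probes, set regulators and relatives, the genes of these lists that a count refers to, and the 5 genes most like Isg15. No set test was run. Ranks, likeness and the replicate block with the HOE_APP sign turned were added after seeing the data. Values of some genes that the lists and counts hold are not reported here.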

Additional observations from a re-analysis of the deposited data

Results flagged for a closer look

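For Isg15 (brighter probe) the BK_APP ratios were above 0 on 4 of 4 arrays and the HOE_APP ratios below 0 on 4 of 4, and the difference BK_APP minus HOE_APP was 0.64 on the log2 scale (95% interval 0.28 to 0.99, limma adjusted p = 1). The lowest BK_APP ratio was 0.0009 and the highest HOE_APP ratio −0.06, so the opposite signs rest on small values on some arrays. Herc6 (brighter probe) showed the same arrangement, with a difference of 0.28 (95% interval 0.08 to 0.47, limma adjusted p = 1), which its dimmer probe did not share (0.09). Neither difference passed the adjusted test, both treatments share the APP_WT control, and the direction of HOE_APP is likely only. No single array of a member probe passed Dixon's 95% limit for 4 values. The widest gaps were those of Ube2l6 on HOE_APP replicate 1 (−0.23, a gap of 0.72 of the range), Trim25 on HOE_APP replicate 4 (−0.41, 0.65) and the dimmer probe of Herc6 on HOE_APP replicate 4 (−0.77, 0.63). The dimmer probe of Herc6 had 3 values in BK_APP and was not examined there.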

How the results depend on the processing

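In APP_WT versus WT all 6 genes were called under all 12 alternatives that kept every array and with each replicate left out (6 to 6). Their log2 fold changes kept sign and call in 84 of 84 settings. In BK_APP versus APP_WT, HOE_APP versus APP_WT and BK_APP minus HOE_APP no gene was called under any alternative with adjusted p, and the count stayed at 0 (0 to 0) with each replicate left out. An unadjusted p below 0.05 gave 1, 2 and 3 genes, and the pair of tests of the study's methods gave 3 genes in HOE_APP versus APP_WT. Both rules skip the adjustment. With the replicate block, the paired form of BK_APP minus HOE_APP, 0 genes were called and the smallest adjusted p was 0.286. The block changed no adjusted call but moved the number of probes at an unadjusted p below 0.05 from 3 to 6 of 8. Turning the sign of the HOE_APP arrays reversed HOE_APP versus APP_WT to 0.45 for Isg15, 0.18 for Uba7, 0.041 for Ube2l6, 0.11 for Herc6, 0.21 for Trim25 and 0.29 for Usp18, and BK_APP minus HOE_APP to −0.26 for Isg15, −0.022 for Uba7, −0.091 for Trim25 and −0.23 for Usp18. Median centering in place of loess put Ube2l6 at 0.052 in HOE_APP versus APP_WT. Leaving out each replicate there gave −0.11 (without replicate 2) to 0.025 (without replicate 1) for Ube2l6 and −0.36 (without replicate 3) to 0.0048 (without replicate 4) for Uba7. The dimmer probe, an alternative chosen after seeing the data, put Herc6 at −0.022 in BK_APP versus APP_WT. The cause of these reversals of uncalled values was not tested. Signal over background limits the sizes of Herc6, Uba7 and Usp18 in APP_WT versus WT, which ran over the alternatives that kept every array from 0.44 to 1.78, 1.45 to 2.97 and 1.43 to 2.64.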
